A study of Mus musculus with 8 samples.

Results

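The anoctamins, also called the TMEM16 family, are membrane proteins encoded in the mouse by the genes Ano1 to Ano10. Their expression was examined in the adult frontal cortex of mice with and without HAR123, an enhancer that lies in an intron of Smg6. The family was taken whole, as the 10 genes with an anoctamin symbol among the 55536 genes of the count table. It was chosen on measured values of the same contrast, because Ano2 was among the genes that passed the study's limits in HAR123-KO against WT. Values of that contrast are therefore given for the family as a description and are not a test of it. The levels of the members relative to each other played no part in the choice.

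Frontal cortex was taken at 8 weeks of age from HAR123-KO mice and WT littermates. HAR123 had been deleted with CRISPR-Cas9 in C57BL/6J embryos, and the line was then backcrossed to C57BL/6J. No treatment or other allele is named for either genotype, and the number of founder lines is not given in the sources used here. Total RNA was depleted of ribosomal RNA and sequenced as 4 WT and 4 HAR123-KO libraries. The labels number the libraries but do not say that each came from a separate animal, so every p-value below measures only the spread between these libraries.

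Anoctamins are activated by calcium inside the cell and work in different ways. Some are channels that let chloride cross the membrane when calcium rises. Others are scramblases, which let phospholipids move between the inner and outer leaflets of the membrane. Ano1 is the chloride channel of secretory epithelia and smooth muscle. Ano2 is the chloride channel that amplifies the odour response of olfactory sensory neurons, and it is also used by several kinds of brain neuron. Ano6 is the scramblase that exposes phosphatidylserine on activated platelets. Ano3 is known for its high expression in the striatum and for variants that cause dystonia. Ano5 is linked to muscular dystrophy and Ano10 to cerebellar ataxia. Ano8 links the endoplasmic reticulum to the plasma membrane. Ano7 is known from prostate and Ano9 from epithelia.

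The total count was 13528251 to 17051001 per library. Of this, 56.8% to 58.1% in WT and 55.1% to 57.4% in HAR123-KO fell on Gm42418, a gene that overlaps ribosomal RNA sequence. Nuclear protein-coding genes other than Lars2 held 2786320 to 3732172 counts per library, and this is the depth behind the values of the anoctamins. Libraries of the same genotype differed by a chi-square of 1.21 to 1.31 per degree of freedom in 12 pairs, and libraries of different genotype by 1.58 to 1.72 in 16 pairs, where sampling noise alone gives 1, so no pair looked like a single library deposited again. Counts of Smg6 cover its exons and do not report the intronic deletion. Its level was 209 ± 7.79 (WT) and 218 ± 15.4 (HAR123-KO) normalized counts, with SDs over 4 libraries each.

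Ano2 and Ano3 are the members whose HAR123-KO and WT libraries were separated, so the sequences just before a RefSeq start of each are shown. Each is the 250 bases before the annotated start in RefSeq on GRCm38.p6, with every CG dinucleotide in capitals. Ano2 is from chr6:125690169-125690418 on the plus strand, the most upstream of 3 start windows listed for the gene, and it ends where the Ensembl gene used for the counts begins. Ano3 is from chr2:110950245-110950494 on the minus strand, the more upstream of 2 listed windows, and its RefSeq start lies 679 bases inside the Ensembl gene.
Ano2: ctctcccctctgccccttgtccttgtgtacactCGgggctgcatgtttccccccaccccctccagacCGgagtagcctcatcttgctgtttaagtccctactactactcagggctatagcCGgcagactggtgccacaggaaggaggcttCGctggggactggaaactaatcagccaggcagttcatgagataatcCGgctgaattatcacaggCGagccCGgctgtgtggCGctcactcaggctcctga
Ano3: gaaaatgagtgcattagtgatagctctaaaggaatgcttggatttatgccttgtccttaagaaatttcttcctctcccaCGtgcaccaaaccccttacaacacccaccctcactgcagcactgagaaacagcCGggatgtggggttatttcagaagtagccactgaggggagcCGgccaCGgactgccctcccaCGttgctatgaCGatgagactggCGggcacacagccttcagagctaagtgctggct

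The Ano2 window holds 8 CG dinucleotides and the Ano3 window 7. The letters CG read alike on both strands. Among 32851 windows of this length, 43.0% held at least as many as that of Ano2 and 46.3% at least as many as that of Ano3, and the median was 6. Of the 10 members, 8 had a window. Their counts ran from 2 in Ano4 and 3 in Ano7, through 13 in Ano5, 16 in Ano1 and 17 in Ano10, to 22 in Ano6, which only 14.8% of windows matched or exceeded. The RefSeq starts of Ano1 and Ano4 also lie inside the Ensembl genes, by 13401 and 86972 bases, so these windows describe RefSeq starts and not always the first exon counted.

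Ano3 was by far the most abundant anoctamin in these frontal cortex libraries. They also held striatal projection neuron markers, and the part of striatal tissue in the level of Ano3 was not tested. Levels between genes were compared per length, as normalized counts per kb of exon. The median over the 8 libraries was 119.8 for Ano3, 21.7 for Ano8, 14.7 for Ano4, 11.9 for Ano10, 9.06 for Ano6 and 4.59 for Ano2. Ano5 and Ano1 were near the limit of detection, at medians of 0.802 and 0.613 normalized counts per kb. Ano9 had no count in any library, and Ano7 had 2 counts in a single HAR123-KO library. A count of 0 in a library allows up to 3 counts by sampling, which for Ano9 is 0.576 to 0.766 normalized counts per kb. Among the 15160 protein-coding genes averaging 1 or more normalized counts, Ano3 stood at the 93.4th percentile per length, Ano8 at the 60.0th, Ano6 at the 35.1st and Ano2 at the 23.9th.

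Most neighbours in this order were separated in every library. The log2 ratio of each pair was tested over the 8 libraries with a two-sided exact permutation test of sign flips, whose smallest possible p is 0.00781. The pairs and their direction came from the medians of the same 8 libraries, so the test describes how steady that order was. Ano3 exceeded Ano8 by 5.26-fold per length as the geometric mean over libraries, a log2 ratio of 2.40 ± 0.22 (SD, n = 8). Ano8 exceeded Ano4 by 1.55-fold, Ano10 exceeded Ano6 by 1.36-fold and Ano2 exceeded Ano5 by 6.54-fold. Ano4 exceeded Ano10 by only 1.24-fold, and this pair was not separated when the longest transcript stood in for the exon union (log2 ratio -0.025). For each of these pairs and for Ano6 over Ano2, the higher gene led in 8 of 8 libraries (exact p = 0.00781, adjusted p = 0.00911 over 7 pairs). Ano5 and Ano1 were not distinguished, with Ano5 higher in 4 of 8 libraries (exact p = 0.852). Ano7 and Ano9 were too often at 0 to be placed in a tested pair.

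**Figure D1:**
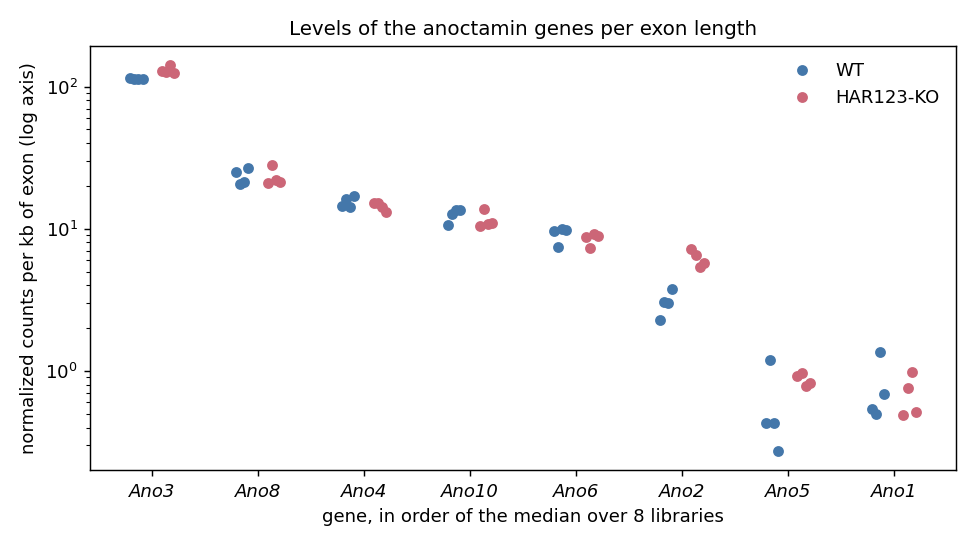
Normalized counts per kb of exon (log axis) of the 8 anoctamin genes with counts in most libraries, with 1 point per library, WT in blue and HAR123-KO in red. Genes are ordered by their median over 8 libraries, and Ano3, with a median of 119.8, stands above the next gene, Ano8, with a median of 21.7.

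Ano2 kept its place in this order in all 8 libraries, and its distance to the next gene above differed by genotype. The log2 ratio of Ano6 to Ano2 per length averaged 1.61 in WT and 0.46 in HAR123-KO. This ratio depends on the length used, since with the longest transcript the median of Ano6 was 22.6 in place of 9.06 normalized counts per kb, and the log2 ratio over all 8 libraries 1.90 in place of 1.04. As a share of the summed per-length level of all anoctamins, Ano2 made up 1.30% to 2.05% in WT and 2.63% to 3.74% in HAR123-KO. Ano3 made up 61.0% to 64.8% and 63.8% to 68.8%, and Ano8 11.8% to 14.6% and 10.7% to 14.0%.

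Among the calcium-activated chloride channels, Ano2 doubled in HAR123-KO and Ano1 was too low to read. Ano2 (ENSMUSG00000038115) lies on chromosome 6 from 125690419 to 126040126 on the plus strand. Its counts were 11, 16, 19 and 19 in the WT libraries and 38, 37, 33 and 29 in the HAR123-KO libraries. After normalization these were 12.4, 16.5, 16.1 and 20.3 in WT and 38.9, 35.2, 29.1 and 30.8 in HAR123-KO. The lowest HAR123-KO library was thus above the highest WT library. The means were 16.3 ± 3.25 and 33.5 ± 4.43 normalized counts (SD, n = 4 each), a log2 fold change of 1.03 ± 0.27 (SE) and a fold of 2.05 with a 95% interval of 1.41 to 2.97. The adjusted p from DESeq2 was 0.0140.

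The depth behind Ano2 was 65 counts over the WT libraries and 137 over the HAR123-KO libraries. As CPM relative to the nuclear protein-coding counts, the HAR123-KO libraries stood at 12.4, 11.2, 9.22 and 9.80. The exact (Clopper-Pearson) 95% intervals of these 4 values reached down to between 6.35 and 8.75, and those of the WT libraries, at 3.95, 5.23, 5.09 and 6.47, reached up to between 7.06 and 10.1. Of the 16 pairs of a WT and a HAR123-KO library, 4 had intervals that did not overlap, and these intervals cover counting error only. The spread between replicates, an SD of 3.25 in WT, was no larger than the 4.08 that counting alone gives. Leaving out 1 library changed the call in DESeq2. Of 8 DESeq2 fits that left out 1 library, 1 kept Ano2 past the limits (without HAR123-KO replicate 3), and 4 gave it no adjusted p because the filter on low counts, at a mean of 17.6 with all libraries, rose to between 26.4 and 86.9, above the Ano2 mean. The unadjusted p of Ano2 was 0.000217 to 0.00178 over the 8 fits (DESeq2). The adjusted p was 0.144 without WT replicate 1, 0.0705 without WT replicate 2 and 0.0855 without HAR123-KO replicate 2, with log2 fold changes of 0.93, 1.04 and 1.01. In edgeR, added after seeing the data, Ano2 passed in 8 of 8 fits without 1 library (adjusted p of 0.00372 to 0.026). With the replicate number as a block, Ano2 was not called in DESeq2, and in edgeR its adjusted p was 0.00577. In bulk tissue, more cells that express a gene and more RNA per cell cannot be told apart.

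Ano1 (chromosome 7, 144588549 to 144751974) had 3 to 10 counts per WT library and 3 to 7 per HAR123-KO library. Its fold of 0.883 had a 95% interval of 0.370 to 2.11, so a change of the size seen in Ano2 would not have been detectable for Ano1 at this depth. None of the exon bases of Ano2 or Ano1 is shared with another annotated gene.

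Ano3 (ENSMUSG00000074968) lies on chromosome 2 from 110655201 to 110950923 on the minus strand. The WT libraries held 825.2, 821.6, 820.2 and 812 normalized counts, and the HAR123-KO libraries 931.7, 920.4, 1019 and 904. All HAR123-KO libraries were above all WT libraries. The means were 819.7 ± 5.603 and 943.7 ± 51.2 (SD, n = 4 each), a log2 fold change of 0.21 ± 0.05 (SE) and a fold of 1.15 with a 95% interval of 1.08 to 1.23. The adjusted p from DESeq2 was 0.00132, and the change was under the minimum log2 fold change of 0.5 that a call required. The WT spread of 5.603 was well under the 28.9 that counting alone gives for such a level, while the HAR123-KO spread of 51.2 exceeded its 30.4, with replicate 3 the highest. Without HAR123-KO replicate 3 the log2 fold change was 0.17 and the adjusted p 0.0891, and without any other single library the adjusted p stayed under 0.05. In edgeR the adjusted p without that library was 0.0281. With the replicate number as a block, Ano3 did not pass an adjusted p of 0.05 in DESeq2 and did in edgeR (adjusted p = 0.0011). Ano3 shares 61 exon bases (0.85%) with Muc15 on the other strand, and that gene held 10 counts over the 8 libraries.

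The scramblase Ano6 (chromosome 15, 95790843 to 95974751) had 118.2, 90.6, 122.9 and 119.8 normalized counts in WT and 107.5, 89.4, 112.7 and 109.5 in HAR123-KO. The groups overlapped, and the fold was 0.927 with a 95% interval of 0.778 to 1.10 (DESeq2 adjusted p = 0.926). Ano4 (chromosome 10, 88948994 to 89344762), a close relative of Ano3, had means of 112.4 ± 10.04 in WT and 104.6 ± 7.25 in HAR123-KO, a fold of 0.934 with an interval of 0.788 to 1.11. The intervals of both genes lie below the doubling seen in Ano2.

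Ano8 (chromosome 8, 71476019 to 71485963) ran from 142.1 to 184.0 normalized counts in WT and from 144.4 to 191.1 in HAR123-KO, a fold of 0.990 with an interval of 0.851 to 1.15. It shares 80 exon bases (1.17%) with Dda1 on the other strand, which held 1094 counts, so a few of its counts may belong to that gene if strand was not used in counting. Ano10 (chromosome 9, 122175874 to 122294423) ran from 63.0 to 80.5 in WT and from 61.4 to 81.8 in HAR123-KO, a fold of 0.909 with an interval of 0.735 to 1.123. Both genes overlapped between genotypes across nearly their whole range.

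Ano5 (chromosome 7, 51511029 to 51598709) had 3, 9, 4 and 2 counts in WT and 7, 8, 7 and 6 in HAR123-KO. The WT library with 9 counts lay above all of the HAR123-KO libraries and the other 3 below, so the groups overlapped, and the fold of 1.504 had an interval of 0.685 to 3.31. Without that WT library, replicate 2, the log2 fold change was 1.19 in place of 0.59 (DESeq2 adjusted p = 0.94). Ano7 (chromosome 1, 93373930 to 93404303) had its only 2 counts in HAR123-KO replicate 3. Ano9 (chromosome 7, 141101212 to 141117806) had none. No fold is given for Ano7 or Ano9.

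**Figure D2:**
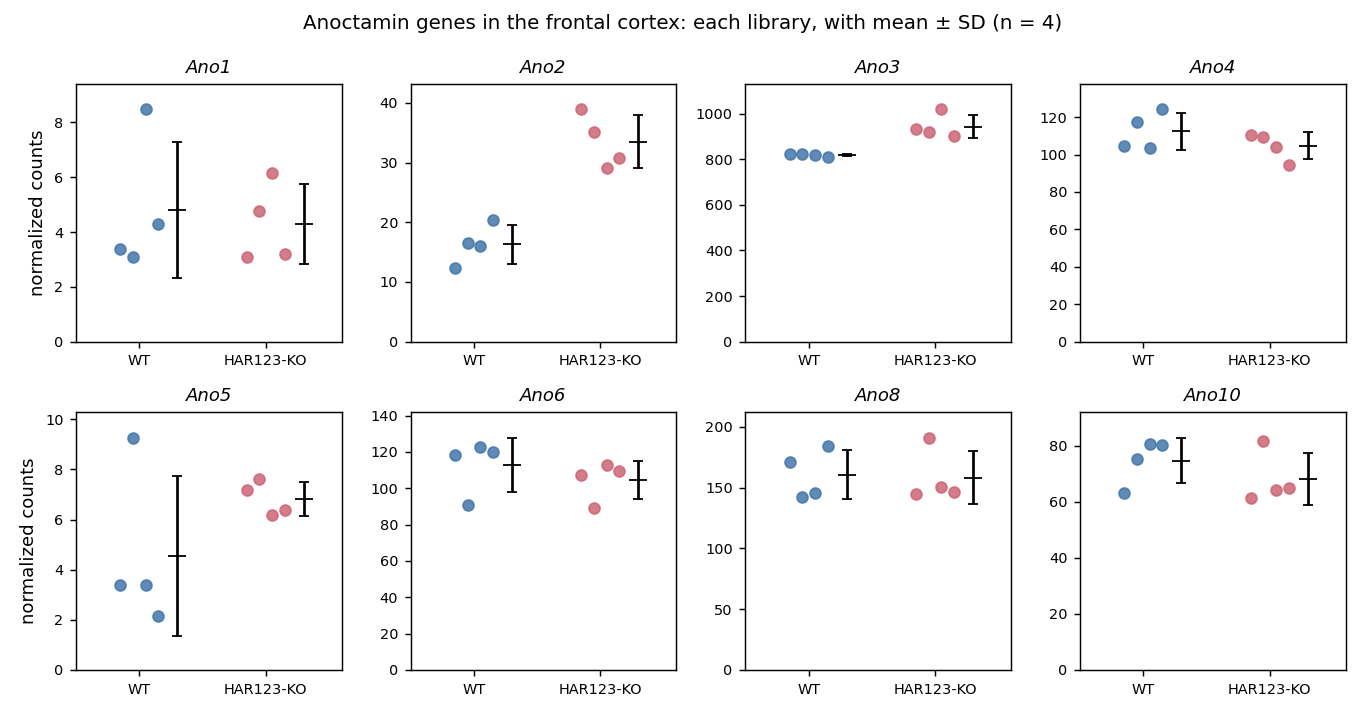
Normalized counts (linear axes from 0) of the 8 anoctamin genes with counts in most libraries, with 1 point per library and the mean ± SD of 4 libraries beside each genotype. Ano2 (12.4 to 20.3 in WT, 29.1 to 38.9 in HAR123-KO) and Ano3 (812 to 825.2 and 904 to 1019) have no overlap between genotypes, and the other 6 overlap.

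Of the 10 members, 6 had an adjusted p and 1, Ano2, was called, where a call needed an adjusted p under 0.05 together with a log2 fold change beyond 0.5 in either direction. Over all 12758 genes with an adjusted p, 0.298% were called in either direction and 0.227% as higher. Without the minimum fold, 2 of the 6 members passed, both higher, where 1.69% of all genes passed and 0.972% were higher. The groups did not overlap in 2 of the 6 members averaging 10 or more normalized counts, and in 7.21% of the 14464 genes with that mean. Because the family was chosen on this contrast, nothing is read from these shares. Of the same 6 members, 2 were higher and 4 lower, with a median log2 fold change of -0.06 beside -0.001 over all genes of that mean.

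The gene just before Ano2 moved the other way. Vwf (ENSMUSG00000001930), which encodes von Willebrand factor of endothelial cells and platelets, lies on the same strand from 125546774 to 125686679 and ends 3739 bases before Ano2 starts. It held 84.4, 94.7, 94.9 and 93.1 normalized counts in WT and 41.0, 43.7, 50.2 and 62.7 in HAR123-KO. The groups were apart again, with the highest HAR123-KO library under the lowest WT library. The log2 fold change was -0.90 ± 0.16 (SE), a fold of 0.536 with a 95% interval of 0.431 to 0.667 (DESeq2 adjusted p = 7.3e-06). With the replicate number as a block, the adjusted p of Vwf was 0.124 in DESeq2 and 7.2e-06 in edgeR. The ratio of Vwf counts to Ano2 counts within a library was 6.82, 5.75, 5.90 and 4.58 in WT and 1.05, 1.24, 1.73 and 2.03 in HAR123-KO. The sum of their normalized counts ran from 96.8 to 113.4 in WT and from 78.9 to 93.6 in HAR123-KO.

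Vwf was the only called gene among the 10 other genes within 500 kb of Ano2 that averaged 10 or more normalized counts, of 27 annotated there. On the other side of Ano2, the potassium channel gene Kcna5 had 6.8, 13.4, 13.6 and 12.8 normalized counts in WT and 23.5, 15.2, 15.8 and 23.4 in HAR123-KO. Its groups did not overlap either, and its log2 fold change was 0.72 ± 0.35, but its mean was too low for an adjusted p in DESeq2 and edgeR gave an adjusted p of 0.25. The remaining 8 genes, Ncapd2, Mrpl51, Vamp1, Tapbpl, Ltbr, Scnn1a, Tnfrsf1a and Cd9, had log2 fold changes of -0.11 to 0.34, and the lowest adjusted p of the 7 that had one was 0.753 (DESeq2).

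**Figure D3:**
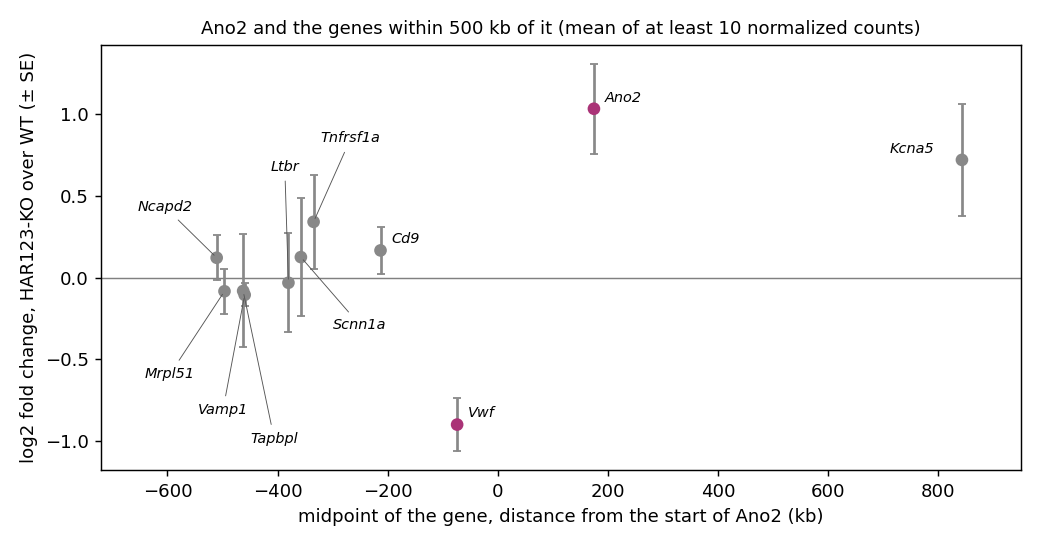
Log2 fold change (HAR123-KO over WT, ± SE) of Ano2 and the 10 genes within 500 kb of it averaging 10 or more normalized counts, against the distance of each gene's midpoint from the start of Ano2 in kb. The called genes, Ano2 at 1.03 and Vwf at -0.90, are coloured, Kcna5 at 0.72 lies far to the right, and the 8 genes to the left of Vwf lie between -0.11 and 0.34.

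Genes that work with anoctamins were read from 5 lists. In olfactory neurons Ano2 acts downstream of a G protein, adenylyl cyclase and cyclic nucleotide-gated channels. Of 9 such partners 4 averaged 10 or more normalized counts, and 1 passed an adjusted p of 0.05 in DESeq2, edgeR and limma, under the minimum fold. That gene was Gnal, the olfactory G protein alpha subunit that the striatum also uses. It had 909.6 ± 60.0 (WT) and 1029 ± 22.0 (HAR123-KO) normalized counts, a log2 fold change of 0.18 ± 0.05 (adjusted p = 0.00951), and it was also the most abundant of the list per length at 86.8 normalized counts per kb. The summed level of the list was 1405 to 1594 in WT and 1641 to 1649 in HAR123-KO, with no overlap, and the median log2 fold change of the 4 genes was 0.08. Of these 4 only Gnal was itself separated between genotypes. The others overlapped and had adjusted p of 0.932 to 0.999 in DESeq2, so the sum does not show a rise of the list as a whole.

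Calcium entry and release genes supply the signal that opens anoctamins. All 14 averaged 10 or more, with 2 higher and 1 lower at an adjusted p under 0.05, all 3 under the minimum fold, and 4 at an unadjusted p under 0.05 (DESeq2). Itpr1, the inositol trisphosphate receptor of the endoplasmic reticulum, had 4001 ± 13.2 (WT) and 4419 ± 151 (HAR123-KO) normalized counts (log2 fold change 0.14 ± 0.03, adjusted p = 3.1e-05). The ryanodine receptor gene Ryr3 was higher by 0.23 ± 0.06 (adjusted p = 0.0083), and the calmodulin gene Calm3 lower, at -0.11 ± 0.03 (adjusted p = 0.00525). The summed level of the list overlapped between genotypes, at 25320 to 25620 and 25270 to 25520. Calm2 had the highest level per length of the list, at 2396 normalized counts per kb, and a DESeq2 adjusted p of 0.995.

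Chloride channels and transporters of other families numbered 35, of which 21 averaged 10 or more, 12 of them higher and 9 lower, with a median log2 fold change of 0.01. With DESeq2, 0 were called, 3 had an unadjusted p under 0.05, and 2 passed an adjusted p of 0.05 in both edgeR and limma. Slc12a2, the transporter that loads cells with chloride, was the 1 with an adjusted p under 0.05, at 334 ± 18.01 (WT) and 401.5 ± 17.9 (HAR123-KO) normalized counts (log2 fold change 0.27 ± 0.07, DESeq2 adjusted p = 0.00979). Slc12a5, the transporter that extrudes chloride from neurons, was the most abundant per length at 279.5 normalized counts per kb, and its log2 fold change was -0.01 ± 0.03. Clic6 had the smallest p, with 7.79 ± 3.87 and 24.4 ± 3.11 normalized counts, and is also on the list of choroid plexus markers. DESeq2 gave it no adjusted p.

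Among phospholipid scramblases and flippases of other families, 20 of 31 averaged 10 or more, 11 higher and 9 lower. With DESeq2, 0 passed an adjusted p of 0.05 and 2 an unadjusted one, against adjusted counts of 1 in edgeR and 0 in limma. The smallest p was that of the flippase gene Atp11a, at 274.4 ± 5.89 and 317.3 ± 9.05 normalized counts (log2 fold change 0.21 ± 0.08, adjusted p = 0.179 in DESeq2 and 0.0437 in edgeR). Tmem30a, the subunit that flippases need to leave the endoplasmic reticulum, was the most abundant per length, with a log2 fold change of 0.00 ± 0.04. The TMC and TMEM63 genes, which share the fold of the anoctamins, had 6 of 11 members averaging 10 or more, 4 higher and 2 lower, and 0 had an adjusted p under 0.05 in DESeq2, edgeR or limma, or an unadjusted p under 0.05 in DESeq2. Tmem63a had the smallest p of these (log2 fold change 0.20 ± 0.13, adjusted p = 0.742 in DESeq2), and Tmem63b the highest level per length, 84.3 normalized counts per kb.

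Markers of the tissue and of cells around it were set beside the anoctamins. All 12 neuron markers were present, with summed levels of 31250 to 31880 normalized counts in WT and 30800 to 31210 in HAR123-KO, and 1 of the 12 was lower at an adjusted p under 0.05 (DESeq2). Striatal projection neuron markers were present in both genotypes and higher in HAR123-KO. Of 12 such genes 11 were higher, 8 with an adjusted p under 0.05 and 3 called (DESeq2). Over all genes with an adjusted p, 1.69% passed that limit and 0.298% were called. In edgeR 10 and in limma 9 of the 12 had an adjusted p under 0.05. Their summed level was 4515 to 4679 in WT and 5965 to 6144 in HAR123-KO. Ano3, known for its striatal expression, equalled 17.9%, 17.6%, 18.2% and 17.5% of that sum in the WT libraries and 15.2%, 14.98%, 16.7% and 15.2% in the HAR123-KO libraries. The rise of Ano3 was thus smaller in proportion than that of the list, and the part of striatal tissue in it was not tested.

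Choroid plexus markers had a higher summed level in HAR123-KO, at 98.0 to 118.4 normalized counts in WT and 765.9 to 795.9 in HAR123-KO. Of the 12 genes 5 averaged 10 or more, all of them higher. Only 2, Ttr and Kl, had an adjusted p in DESeq2, and both were called. In edgeR and in limma 5 passed an adjusted p of 0.05, and 10 of the 12 had an unadjusted p under 0.05 in DESeq2. Ttr alone had 641.3 normalized counts in the HAR123-KO mean and 68.2 in that of WT. Endothelial markers, which bear on Vwf, were lower in 10 of 10, with a median log2 fold change of -0.35 beside -0.90 for Vwf. Of these, 0 passed an adjusted p of 0.05 in DESeq2, edgeR or limma, and 3 had an unadjusted p under 0.05 in DESeq2. Their summed level was 416.1 to 462.6 in WT and 356.3 to 366.1 in HAR123-KO. Olfactory bulb markers, which bear on Ano2, stood at 18.5 to 27.8 and 22.8 to 30.7 in sum, with 0 of 8 at a mean of 10 and Tbx21 at 0. Thalamus markers summed to 266.4 to 284.1 and 241.6 to 286.1, with Gbx2 at 0. The groups overlapped for both of these lists, in which 0 genes passed in DESeq2, edgeR or limma or had an unadjusted p under 0.05.

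The other lists were of cortical support cells. Oligodendrocyte markers summed to 15830 to 16340 in WT and 17960 to 18250 in HAR123-KO, with 4 of 10 higher at an adjusted p under 0.05 (DESeq2). Astrocyte markers summed to 22320 to 23000 and 20710 to 21220, with 3 of 10 lower at that limit. Microglia markers (1161 to 1266 and 1119 to 1174) and smooth muscle and pericyte markers (385 to 461.2 and 413.6 to 444.5) overlapped, and 0 of either passed in DESeq2 or limma. In edgeR 1 of the smooth muscle and pericyte genes passed, and 3 had an unadjusted p under 0.05 in DESeq2, against 0 for microglia in both. The part of these tissue and cell type differences in the values of Ano2, Ano3 and Vwf was not tested.

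**Figure D4:**
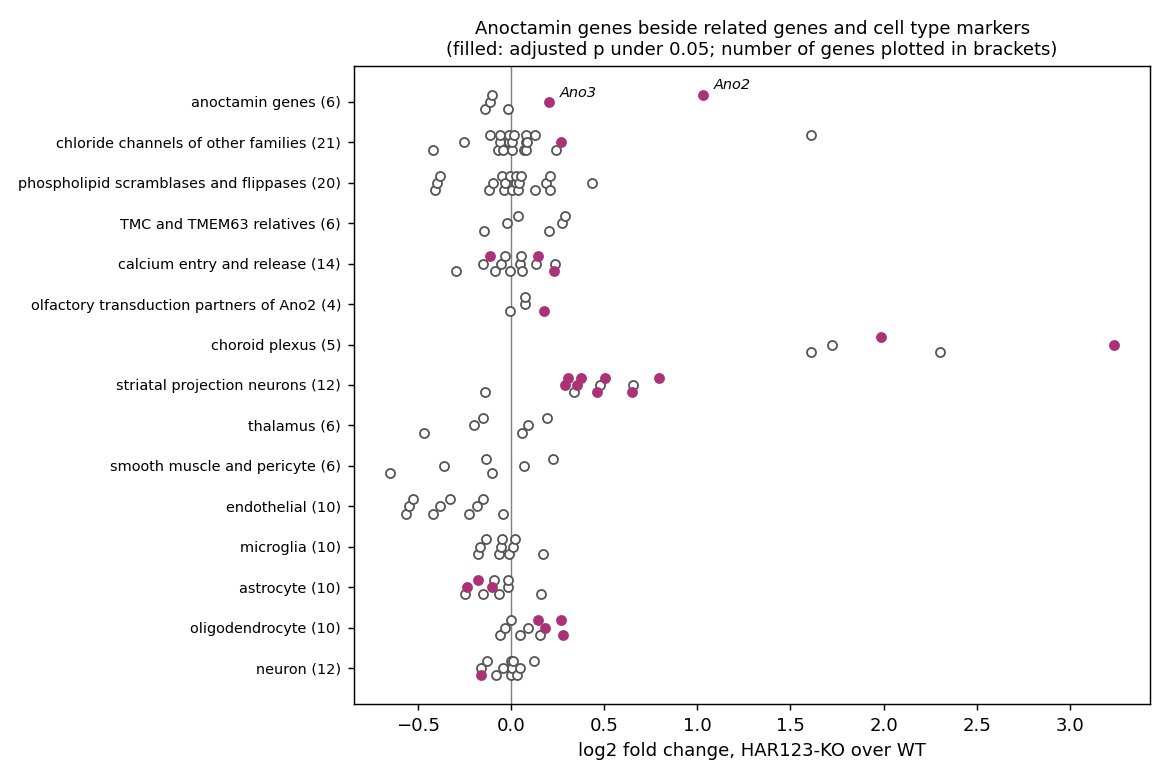
Log2 fold change (HAR123-KO over WT) of each gene averaging 10 or more normalized counts, with 1 row for the anoctamin genes, the related gene lists and the cell type marker lists, and the number of genes plotted in brackets. Filled points have an adjusted p under 0.05 in DESeq2. Ano2 at 1.03 stands outside the other anoctamins, which lie between -0.14 and 0.21, and the choroid plexus markers lie farthest to the right.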

How the data were processed

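RNA was extracted with a column kit, depleted of ribosomal RNA, made into libraries with a directional kit and sequenced as paired ends. The authors aligned the reads with STAR 2.5.2b to GRCm38 and counted them per gene over exons with featureCounts, and the deposited values are raw read counts. The strand and multiple-match settings at counting are not given in the sources used here. All 55536 gene identifiers matched GENCODE M21, with 0 unused columns of per-sample values. Coordinates are 1-based GRCm38 positions.

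Genotype and replicate number came from the labels. Genes were tested across the whole table in R 4.3.3 with DESeq2 1.42.0 (Wald test, median-of-ratios factors, Benjamini-Hochberg adjustment over the 12758 genes above its filter at a mean of 17.6). A call needed an adjusted p under 0.05 together with a log2 fold change beyond 0.5 in either direction. Alternatives were edgeR 4.0.16, limma-voom 3.58.1, other scalings, filters and limits, the replicate number as a block, and leaving out each library. Added after seeing the data were the block in edgeR and with a local dispersion trend in DESeq2, leaving out each library in edgeR, the alternatives for Vwf, and the level order without each library. The script was tested on simulated data. Same-numbered libraries did not deviate together.

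The members and lists were chosen with earlier results of these data known. Named genes were all anoctamins, the genes within 500 kb of a called anoctamin averaging 10 or more normalized counts, Smg6, and in each of 5 related lists the called genes, or else the gene with the smallest p and the one most abundant per length. Others at an adjusted p under 0.05 were named after their values were seen. Marker lists were summed over 10 cell and tissue types. Levels per kb use the union of exons. Promoter sequences are from RefSeq (GRCm38.p6), and protein sequences were not used here.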

Additional observations from a re-analysis of the deposited data

Results flagged for a closer look

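Within a group of 4 libraries, a single value can stand apart by Dixon's 95% limit, which is set on the gap to the nearest library over the whole range. This was so in 3 of 16 groups over the 8 members with counts in most libraries, where chance alone gives about 1 in 20, or 0.8 of 16. Ano6 had 90.6 normalized counts in WT replicate 2, against 118.2 to 122.9 in the other WT libraries. Ano8 had 191.1 in HAR123-KO replicate 2, against 144.4 to 150.5. Ano10 had 81.8 in the same HAR123-KO library, against 61.4 to 64.9. Ano2 and Ano3 had no such value.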

How the results depend on the processing

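Ano2 kept its direction in all 18 alternative fits, with log2 fold changes of 0.93 to 1.15, and passed the limits in 9 of the 13 that gave it an adjusted p. Ano3 ran from 0.17 to 0.24 and had an adjusted p under 0.05 in 15 of 18. Vwf ran from -1.03 to -0.82, and 15 of 16 with an adjusted p passed. With the replicate block in DESeq2, Ano2, Ano3 and Vwf lost significance (adjusted p of 1, 1 and 0.124), with 9 genes and 0 anoctamins called. That fit took a parametric dispersion trend where the fit without the block took a local one. With the replicate block and a local trend, added after seeing the data, 11 genes and 0 anoctamins were called, Ano3 had an adjusted p of 0.109, and Ano2 and Vwf had none. In edgeR the replicate block, added after seeing the data, kept Ano2 (adjusted p = 0.00577) with 67 genes called. The cause of the difference between the tools was not tested, and same-numbered libraries did not deviate together (correlations of -0.013 to 0.005, and no library matched its own number best).

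Over all genes, 38 were called, against 73 in edgeR and 215 without the minimum fold, which gave 2 anoctamins. The study's methods section states stricter limits for RNA-seq (adjusted p under 0.01, log2 fold change beyond 1). At those limits 3 genes and 0 anoctamins were called, and the adjusted p of 0.0140 left Ano2 out. Leaving out 1 library gave 11 to 44 called genes, of which 11 came without HAR123-KO replicate 4 and 18 when WT replicate 3 was left out, and 0 to 1 anoctamins. With the longest transcript as the length, the log2 ratio of Ano4 to Ano10 turned to -0.025 (exact permutation test, adjusted p = 0.711). At this depth, changes of Ano1, Ano5, Ano7 and Ano9 could not be measured.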
